A study of Mus musculus with 16 samples.

Results

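The 82 genes described here encode the proteins of the cytoplasmic ribosome: 50 of the large subunit (Rpl and Rplp genes) and 32 of the small subunit (Rps genes and Rpsa). They were chosen by symbol from the 24091 genes that both count tables list, as Rpl or Rps followed by a number and at most 1 letter, together with Rplp0, Rplp1, Rplp2 and Rpsa. Names ending in -ps, which mark pseudogenes, and the Rps6k kinases were left out. The rule reads symbols only, not values, though the family was taken up with earlier results of these data known.

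The study set mice that lack Tff2, a small secreted trefoil peptide, in cells of the Pdx1 lineage against mice with an intact gene. The knockout (KO) animals were Pdx1:Cre;Tff2fl/fl, so that the loxP-flanked Tff2 gene was removed where the Pdx1 promoter drives Cre, in the pancreatic and neighbouring foregut epithelium, and not in the blood cells, vessels, nerves or connective tissue of the pancreas. The controls were Tff2fl/fl: they carry the same floxed alleles without Cre, so effects of the Cre driver and of the loss of Tff2 cannot be told apart. PolyA RNA was sequenced from whole pancreas at embryonic day 16.5 (E16.5; KO embryos 01, 18 and 19, control embryos 02, 08 and 13) and from hand-picked islets of 60-week-old male mice (KO mice 055, 122, 803, 812 and 845, control mice 052, 826, 829, 857 and 858).

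Each ribosome holds 1 copy of nearly every one of these proteins, and cells that export much protein, such as the acinar and islet cells of the pancreas, are rich in ribosomes. The messages of ribosomal proteins (RP) begin with a C in a run of pyrimidines, the 5′ terminal oligopyrimidine tract, through which the kinase mTOR controls their translation together. RPs that are left unassembled, Rpl5 and Rpl11 above all, can bind Mdm2 and so stabilise p53.

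Gene counts summed to between 14866194 and 22699934 in the 6 pancreas libraries and to between 22595400 and 32385042 in the 10 islet libraries. Tff2 itself had 51, 147 and 27 counts in the KO pancreata, against 848, 406 and 611 in the controls, a log2 difference of -2.80 (adjusted p = 0.0297, edgeR). In islets it was low in both groups. KO islets 055, 122, 803, 812 and 845 had 0, 12, 16, 8 and 2 counts. Control islets 052, 826, 829, 857 and 858 had 25, 69, 30, 135 and 62. Levels are given as CPM, a gene's count in every 1000000 counts of the library after TMM scaling (the trimmed mean of M-values, which sets the bulk of genes equal between libraries). A pair of the KO pancreata stand apart. KO 18 had 134 CPM of the Y-linked Ddx3y and 1.56 CPM of Xist, whereas the other 5 pancreata had at most 0.172 CPM of Ddx3y and at least 1088 CPM of Xist. KO 01 had 615 CPM of the liver gene Alb, against 43.1 and 81.7 CPM in the other KO pancreata and 26.9 to 100 CPM in the controls. Results at E16.5 are therefore also given without each of them.

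RP genes took a smaller share of the gene counts in KO than in control pancreas at E16.5, and nearly every well-counted member had a lower mean in KO. The share rests on the members that are well counted in this tissue, since 53 of them held 99.4% of the RP counts. The 82 genes together took 1.27%, 1.31% and 1.21% of all gene counts in KO pancreata 01, 18 and 19, against 1.39%, 1.44% and 1.35% in control pancreata 02, 08 and 13. No KO library reached the lowest control, and the means were 1.26% ± 0.0475 in KO and 1.39% ± 0.0448 in control pancreas (SD, n = 3 each). After TMM scaling the shares were 1.19%, 1.32% and 1.19% in KO and 1.44%, 1.46% and 1.39% in control pancreas. Leaving out the counts of acinar enzymes, islet hormones and erythroid genes, the share averaged 1.40% ± 0.0730 in KO and 1.61% ± 0.0310 in control pancreas. Leaving out 1 library at a time, the difference of KO minus control stayed between -0.151 and -0.103 percentage points, around -0.128 with all 6.

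In the islets the shares overlapped. They were 1.45%, 1.44%, 1.56%, 1.52% and 1.49% in KO islets 055, 122, 803, 812 and 845, against 1.48%, 1.38%, 1.38%, 1.46% and 1.48% in control islets 052, 826, 829, 857 and 858. The means were 1.49% ± 0.0493 in KO and 1.44% ± 0.0542 in control islets (SD, n = 5 each).

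**Figure D1:**
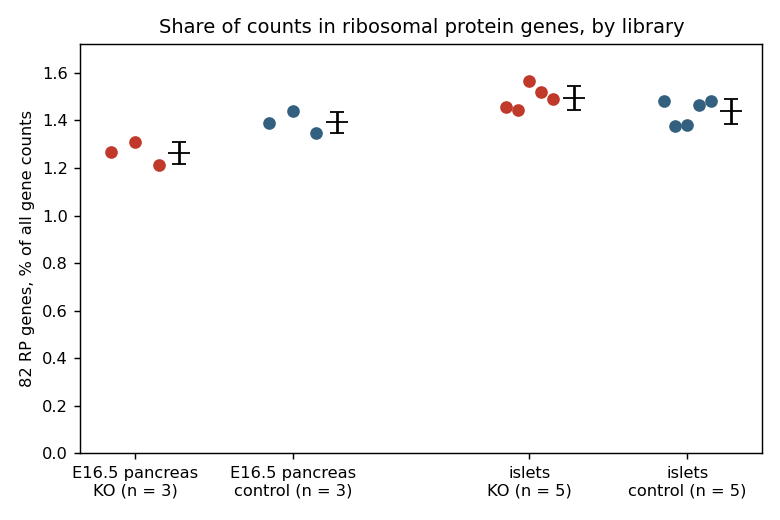
Percent of all gene counts in the 82 RP genes (vertical axis, from 0) for each library, in KO and control groups of both tissues. Points are libraries and the bars beside them are mean ± SD. The 3 KO pancreata lie between 1.21% and 1.31%, below the 3 controls at 1.35% to 1.44%, while KO and control islets overlap.

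Gene by gene, 8 of the 75 members tested at E16.5 fell in KO pancreas and 0 rose at an adjusted p under 0.05 (edgeR's quasi-likelihood test, Benjamini-Hochberg over all 14914 genes tested). Of all genes tested, 2.68% fell and 3.75% rose by the same rule. The 8 were Rpl18, Rpl41, Rpl14 and Rpl37a of the large subunit and Rps28, Rps18, Rps4x and Rps15 of the small subunit, each lower by 16% to 20.8%. These directions hold with TMM, with DESeq2's size factors and with library totals, but all 8 fold changes turned positive when libraries were scaled to 15 epithelial marker genes, a scaling that moved the median of all genes by 0.41 on the log2 scale.

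Rpl18 had 87.0, 89.4 and 83.9 CPM in KO pancreata, against 113, 114 and 101 CPM in controls. Every KO value lay below every control value, and the log2 fold change was -0.33 ± 0.064 (SE; adjusted p = 0.0297). Rps28, at the exit side of the messenger RNA channel, had 30.5, 32.8 and 33.5 CPM in KO pancreata, against 42.5, 38.8 and 41.0 CPM in controls. The groups did not overlap, with a log2 fold change of -0.34 ± 0.069 (adjusted p = 0.0352). Rpl41, the smallest protein of the ribosome, had 152, 165 and 145 CPM in KO pancreata, against 199, 183 and 197 CPM in controls. Here too the groups were separate, at -0.32 ± 0.068 (adjusted p = 0.0369). Rps18, in the head of the small subunit, had 76.9, 85.0 and 79.7 CPM in KO pancreata, against 99.9, 98.8 and 94.2 CPM in controls. Its log2 fold change was -0.28 ± 0.059 (adjusted p = 0.0382), with no overlap.

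Adjusted p-values of the other 4 lay just under the threshold. Rpl14 averaged 132 ± 10.7 CPM in KO and 164 ± 7.95 CPM in control pancreas (SD, n = 3 each; log2 fold change -0.31, adjusted p = 0.0477, edgeR). Rps4x, the X-linked form of S4, averaged 212 ± 8.10 CPM in KO and 252 ± 9.02 CPM in control pancreas (-0.25, adjusted p = 0.0487). KO 18, the library with Y-linked transcripts, had 220 CPM of Rps4x, against 204 and 211 CPM in KO 01 and 19 and 245 to 262 CPM in the controls. Rps15, which sits near the decoding site, averaged 320 ± 28.7 CPM in KO and 403 ± 17.3 CPM in control pancreas (-0.33, adjusted p = 0.0498). Rpl37a averaged 55.3 ± 5.77 CPM in KO and 69.4 ± 1.50 CPM in control pancreas (-0.33, adjusted p = 0.0499). In each of the 8 genes all 3 KO libraries lay below all 3 controls. Just outside the threshold stood, among others, Rpl32 (adjusted p = 0.0518), Rps10 (0.0540), Rps9 (0.0549) and Rpl35a (0.0602), so the boundary of the 8 divides genes of like fold change.

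How many members passed depended on single libraries and on the tool. Beside 8 with all 6 libraries, the count was 2 without KO 01, 20 without KO 18, 0 without KO 19 and 0 without any 1 of control 02, 08 or 13. Over all genes, 341 of 15033 were lower without KO 01, 395 of 15078 without KO 18 and 192 of 15089 without KO 19. With 1 control fewer, at most 4 genes of any kind passed. DESeq2 called 24 members lower, against 4.24% of all genes, and limma-voom 18, against 3.45%. Scaled to library totals the count was 0, against 1.2% of all genes. Scaled to the sum or the geometric mean of the epithelial markers, 18 and 19 members were higher and 0 lower, where 66.2% and 66.9% of all genes were higher. P-values measure the spread between embryos of unstated litters.

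**Figure D2:**
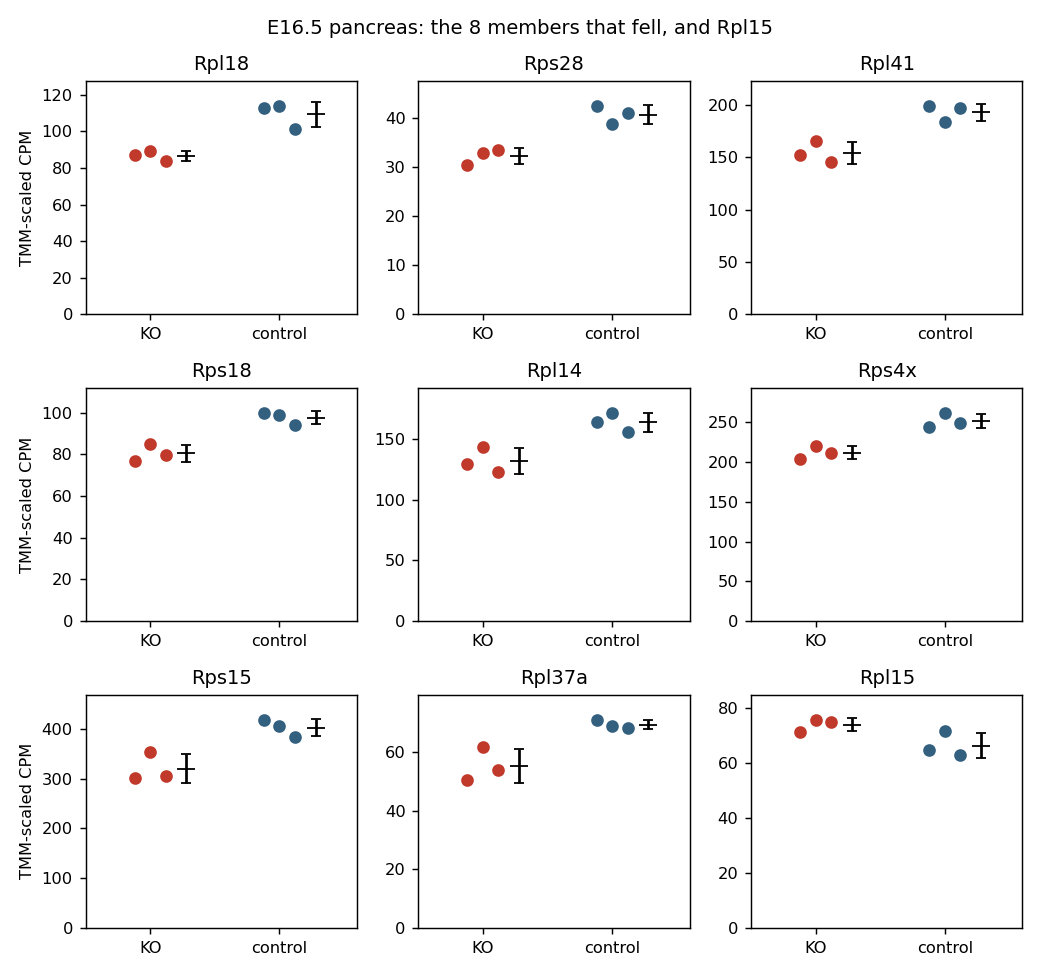
TMM-scaled CPM (vertical axes from 0) in the 3 KO and 3 control E16.5 pancreata for the 8 members that fell and for Rpl15. Points are libraries and bars are mean ± SD. In the 8 genes the KO points lie below all control points, and in Rpl15 the KO mean of 73.8 CPM stands above the control mean of 66.2 CPM with overlap.

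Lower values ran through the family. Over the 75 members tested the median log2 fold change was -0.21, or 13.7% lower, against -0.0012 over all genes, and 68 of the 75 were negative, against 7487 of 14914 genes. Every KO library lay below every control in 41 of the 75 members and above every control in 0. Among all genes tested, 16.1% had all KO libraries below and 15% had all above. At an unadjusted p under 0.05, 39 members were lower and 1 was higher, where 12.4% of all genes were lower and 13% higher. Large-subunit genes had a median of -0.23 over 44 tested members, 4 of them called, and small-subunit genes a median of -0.19 over 31, also 4 called. Without KO 01 the member median was -0.18, and without KO 18 it was -0.27. With either epithelial scaling the member median was 0.20 and the median of all genes 0.41; a change of scaling moves all genes together, so the distance between these medians is fixed by construction.

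Counts split the members into well and poorly measured ones. The 53 members with a mean of at least 10 CPM held 99.4% of the RP counts at E16.5; 52 of them were negative, with a median of -0.23 and an interquartile range of -0.31 to -0.17. The 22 tested members under 10 CPM had a median of -0.16, 16 of them negative, and none passed the test. Their values carry wide errors. Rpl36 had 2.22, 1.69 and 2.20 CPM in KO pancreata, against 4.24, 2.74 and 3.10 CPM in controls. Its fitted difference of -0.72 ± 0.23 on the log2 scale was the most negative of all members, yet the adjusted p was 0.102 (edgeR).

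**Figure D3:**
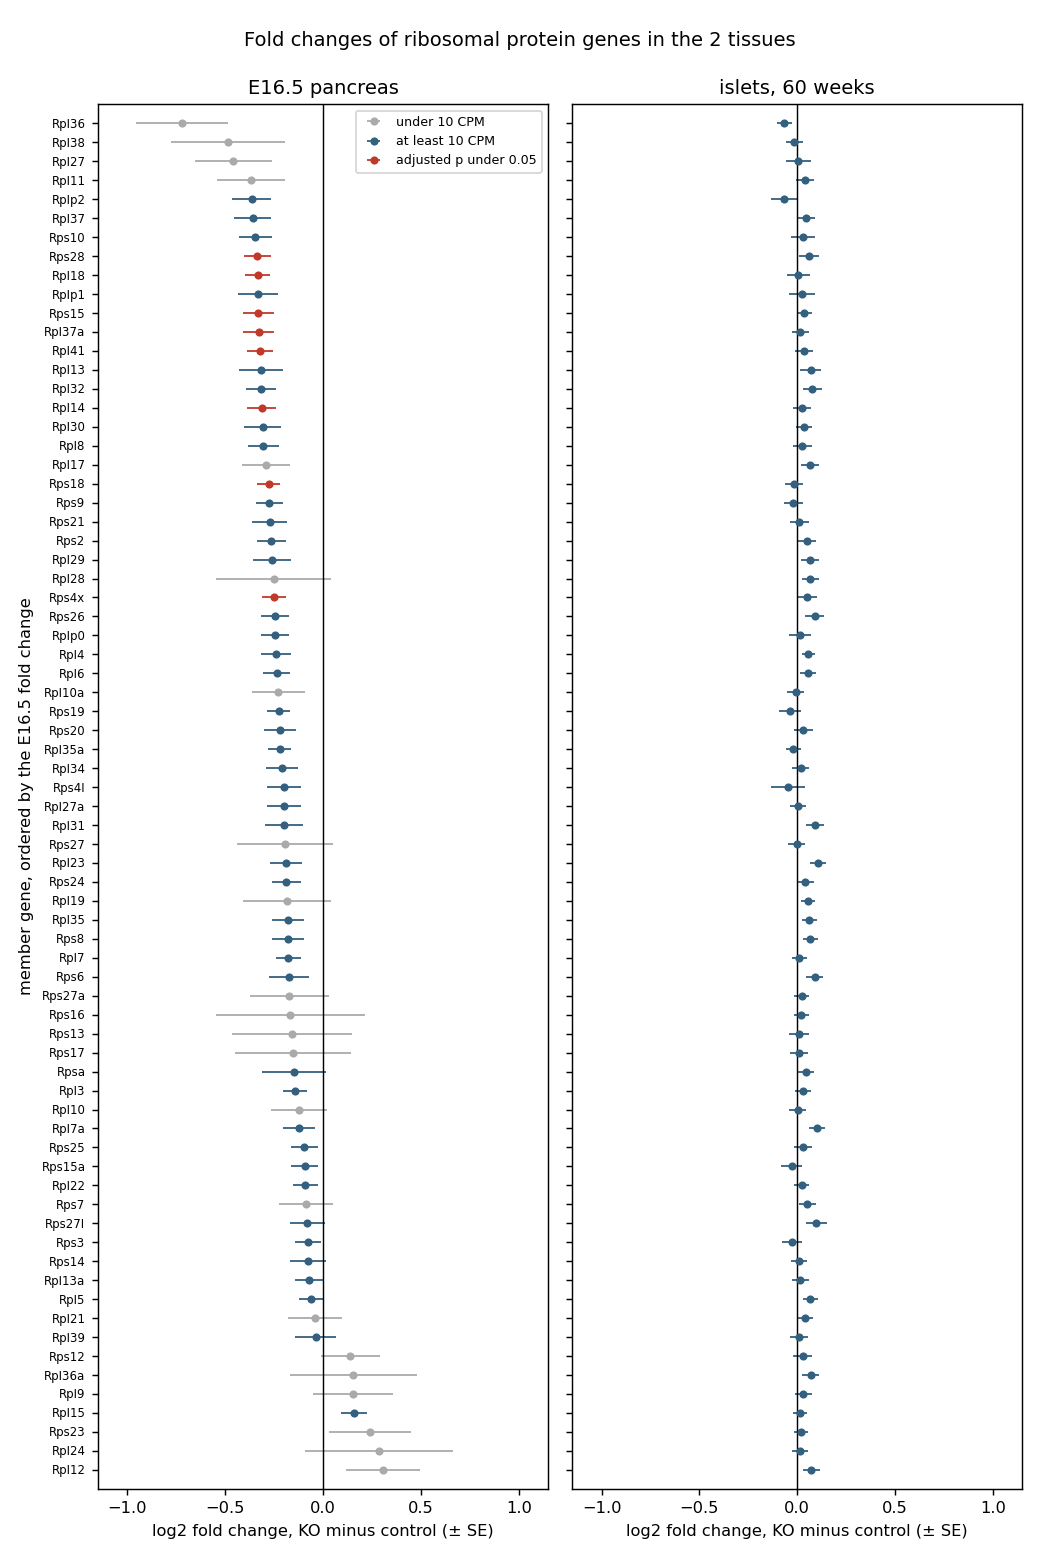
Log2 fold change of KO over control (horizontal axes, ± SE) for 72 of the 75 members tested at E16.5, in E16.5 pancreas (left) and in islets (right), each row 1 gene in order of its E16.5 value. Most E16.5 points lie left of 0, around the median of -0.21 over all 75, and the islet points lie within 0.11 of 0.

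The genes of the stalk, which recruits the translation GTPases, showed the common pattern without passing the test. Rplp0, the stalk base, had 660, 733 and 667 CPM in KO pancreata, against 812, 828 and 800 CPM in controls (log2 fold change -0.24 ± 0.072, adjusted p = 0.0813). Rplp1 averaged 342 ± 36.2 CPM in KO and 431 ± 43.8 CPM in control pancreas (-0.33, adjusted p = 0.0879). Rplp2 averaged 122 ± 16.7 CPM in KO and 157 ± 8.75 CPM in control pancreas (-0.37, adjusted p = 0.0648). In all 3 the groups did not overlap.

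Rpl5 and Rpl11, which form a particle with 5S ribosomal RNA and can bind Mdm2, differed in how well they were measured. Rpl5 had 38.7, 39.0 and 37.8 CPM in KO pancreata, against 38.2, 41.5 and 40.8 CPM in controls. The groups overlapped, at -0.061 ± 0.062 (adjusted p = 0.575), and scaled to library totals the sign turned, to 0.016. Rpl11 had 6.03, 6.29 and 4.28 CPM in KO pancreata, against 7.71, 7.05 and 6.67 CPM in controls, with -0.37 ± 0.17 (adjusted p = 0.228). Rps19, the gene most often mutated in human Diamond-Blackfan anaemia, averaged 99.8 ± 6.10 CPM in KO and 117 ± 1.87 CPM in control pancreas (-0.23, adjusted p = 0.0632). Rps6, the target of S6 kinase, averaged 20.7 ± 1.45 CPM in KO and 23.3 ± 2.50 CPM in control pancreas, with overlap (-0.17, adjusted p = 0.330). Rpsa, also known as the laminin receptor precursor, averaged 11.0 ± 2.30 CPM in KO and 12.2 ± 1.31 CPM in control pancreas (-0.15, adjusted p = 0.599).

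Members on the X chromosome are of use because 1 KO embryo differed from the others in Xist. Of the 4, Rps4x fell, Rpl10 had 7.37 ± 0.564 CPM in KO and 8.03 ± 1.11 CPM in control pancreas, and Rpl39 had 102 ± 13.6 CPM in KO and 104 ± 8.42 CPM in control pancreas. Rpl36a had at most 1.06 CPM in KO and 1.01 CPM in control pancreas. Among paralogues, Rps27l, a paralogue of Rps27, averaged 142 ± 11.9 CPM in KO and 150 ± 15.5 CPM in control pancreas (-0.080, adjusted p = 0.620), and Rps4l averaged 40.8 ± 2.04 CPM in KO and 46.9 ± 4.67 CPM in control pancreas (-0.20, adjusted p = 0.189). Rpl3l, the striated muscle form of L3, did not exceed 0.476 CPM in KO and 0.456 CPM in control pancreas. Rpl10l and Rpl39l, known from testis, reached at most 0.230 CPM.

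Of the 75 members tested at E16.5, 7 had a positive log2 fold change. Rpl15 was the only 1 of these among the 53 members of at least 10 CPM. It had 71.2, 75.6 and 74.6 CPM in KO pancreata, against 64.4, 71.3 and 62.8 CPM in controls. The groups overlapped narrowly, KO 01 lying under control 08. Relative to the bulk of genes its log2 fold change was 0.16 ± 0.065 and missed the threshold (adjusted p = 0.178, edgeR). Relative to the summed counts of all 82 members, Rpl15 rose in KO pancreas by 0.38 ± 0.077 (adjusted p = 0.0139). It was the only member to differ from the sum, 1 higher and 0 lower of 75, where under this scaling 20.6% of all genes were higher and 0.677% lower. DESeq2 gave an adjusted p of 0.00143 for it, while the call was lost without control 02 or without control 08, so 0 members were called there. Without KO 01 a second member, Rpl12, was also higher, giving 2, and without KO 18 Rpl37 and Rplp2 were lower, giving 2. Rpl12 averaged only 4.98 CPM at E16.5, where counts carry wide error. For these omissions, counts over all genes were not computed. Rpl15 is one of the members with many copies: 23 other genes, all annotated processed pseudogenes, share a 50-base stretch of its transcript, and 32.1% of its 50-base windows occur in no other gene. The part of those copies in its value was not tested.

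The starts of the 8 genes that fell and of Rpl15 are shown because they carry the calls and because the pyrimidine tract is read from the first transcribed base. RefSeq's promoter table (GRCm38.p6, the build mm10 is made from) holds 61 of the 82 members. Each line runs 5′ to 3′ on the gene's own strand, from 40 bases before the annotated start to 20 bases from it on, and capitals mark a stretch of at least 5 pyrimidines, opening with C, whose first base is within 5 bases of that start; in Rpl14 it lies inside a longer pyrimidine run.
Rpl18 (chr7:45718031-45718090, plus strand): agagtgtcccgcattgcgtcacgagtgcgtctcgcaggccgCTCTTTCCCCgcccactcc
Rpl14 (chr9:120571477-120571536, plus strand): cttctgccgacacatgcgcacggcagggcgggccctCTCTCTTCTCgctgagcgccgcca
Rps18 (chr17:33955646-33955705, minus strand): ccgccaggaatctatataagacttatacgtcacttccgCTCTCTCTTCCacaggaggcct
Rpl15 (chr14:18270967-18271026, minus strand): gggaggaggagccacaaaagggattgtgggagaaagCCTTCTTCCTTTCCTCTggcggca
Rps28 (chr17:33824543-33824602, minus strand): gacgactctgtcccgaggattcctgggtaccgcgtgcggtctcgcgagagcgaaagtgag
Rpl41 (chr10:128549149-128549208, minus strand): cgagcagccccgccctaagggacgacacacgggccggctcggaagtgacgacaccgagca
Rps4x (chrX:102189372-102189431, minus strand): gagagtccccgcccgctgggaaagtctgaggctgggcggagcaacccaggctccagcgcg
Rps15 (chr10:80292391-80292450, plus strand): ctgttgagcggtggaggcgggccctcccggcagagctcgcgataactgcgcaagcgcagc
Rpl37a (chr1:72711220-72711279, plus strand): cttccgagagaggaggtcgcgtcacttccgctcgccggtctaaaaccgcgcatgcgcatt

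The run was present in Rpl18, Rpl14 and Rps18, 3 of the 8 that fell, and also in Rpl15, which did not. Among the 61 members 29 held it, or 47.5%, against 21.2% of the 27025 genes in the promoter table. An annotated start a few bases off moves the window, so a missing run says only that these letters are not at the annotated start. Other motifs were searched on both strands from 250 bases before to 50 bases after the start. The ETS core CCGGAAG was in 41.0% of members and 9.93% of all genes, the YY1 core GCCATNTT in 18.0% and 6.96%, and the SP1 box GGGCGG in 59.0% and 38.2%. TATAAA within 50 bases before the start was in 0 members and 4.17% of all genes. Among the 8 that fell the ETS core was in 2, the YY1 core in 1 and the SP1 box in 4.

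In islets of 60-week-old mice 0 of 77 members passed the test in either direction (edgeR), where 0.0422% of 14219 genes fell and 0.113% rose. At an unadjusted p under 0.05 there were 2 members higher and 0 lower, beside 3.47% and 3.71% of all genes. DESeq2 also called 0 members. The median over the 77 was 0.028 on the log2 scale, against -0.0012 over all genes, and 76 of the 77 lay within 0.1 of 0. Though none passed, 65 of the 77 were positive and 12 negative, where 7012 of 14219 genes were positive and 7207 negative. This balance moved with single libraries and scaling. Without control 826, 28 were negative (median 0.0082), and without KO 122, 6 were (median 0.050). With the epithelial geometric mean 28 were negative (median 0.0090). Members of a library shift together, and the SD of the member median between libraries of a group was 0.055, above the median itself. By a normal approximation, which makes it somewhat narrow, the half-width of the 95% interval was 0.086 for the median member. It was at most 0.17, less than the size of the E16.5 median shift. All KO libraries lay above all controls in 1 member and below in 0, where 0.781% and 0.774% of all genes did so.

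The members with the lowest p in islets, in each direction, differed by small amounts. Rpl23 had a lowest, median and highest level of 246, 249 and 257 CPM in KO islets, against 214, 232 and 249 CPM in controls. Only control 052 reached the KO range, and the log2 fold change was 0.11 ± 0.042 (adjusted p = 0.611, edgeR). Rpl7a averaged 291 CPM in KO and 273 CPM in control islets (0.098, adjusted p = 0.626). Rps6, Rpl31 and Rpl23a followed, at 0.089, 0.090 and 0.081. On the other side Rpl36 averaged 67.0 ± 1.96 CPM in KO and 70.1 ± 2.94 CPM in control islets (SD, n = 5 each; -0.066, adjusted p = 0.775), and Rplp2, Rps4l, Rps19 and Rps3 lay between -0.066 and -0.028. Relative to the summed RP counts 0 members differed, beside 0.0211% of genes higher and 0.0211% lower.

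Of the genes named above for E16.5, Rpl18 averaged 119 ± 9.42 CPM in KO and 118 ± 6.31 CPM in control islets (0.0053, adjusted p = 0.997). Rps15 averaged 177 ± 7.41 CPM in KO and 173 ± 4.29 CPM in control islets (0.036, adjusted p = 0.908). Rpl15 averaged 134 ± 1.18 CPM in KO and 133 ± 4.17 CPM in control islets (0.014, adjusted p = 0.971).

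The difference between tissues was itself tested. In 1 edgeR model over all 16 libraries, the KO effect at E16.5 lay below the KO effect in islets for 24 of 79 members tested and above it for 0, where 3.94% of 15823 genes were below and 3.25% above. All 8 members called at E16.5 were among the 24. The lowest adjusted p belonged to Rps15, with a difference of -0.38 ± 0.080 (adjusted p = 0.00937), followed by Rpl4 at -0.31 (0.0104), Rps28 at -0.41 (0.0110), Rpl32 at -0.41 (0.0114) and Rpl41 at -0.37 (0.0118). The median over members was -0.26, against -0.016 over all genes. The count was 9 without KO 01, 38 without KO 18, 14 without KO 19, 8 without control 02 and 9 without control 08, all E16.5 pancreata, and 11 with library totals. Counts over all genes were not computed for these settings. The test was not run with the epithelial scalings. With the epithelial sum, fitted within each tissue, the member median was 0.20 at E16.5 and 0.036 in islets. The median of all genes was then 0.41 at E16.5 and 0.0041 in islets. Age, tissue and, for most embryos, sex differ together between the tables and cannot be told apart.

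Levels cannot be ranked between the tables. Of the 82 members, 29 averaged under 10 CPM at E16.5, and 24 of these stood between 60.3 and 606 CPM in islets. Rps29 averaged 0.334 CPM over the pancreas libraries and 133 CPM over the islet libraries, Rps27 0.993 and 221 CPM, and Rpl10 7.70 and 606 CPM. A gene outside the family showed the same: Gapdh, a glycolytic enzyme with many pseudogenes, had 18 to 30 counts in the pancreata and 5500 to 9930 in the islets. Copies elsewhere in the genome and low counts overlapped in part. Of 38 members with under 50% of their 50-base windows unique among annotated transcripts (GENCODE M21), 20 were under 10 CPM at E16.5, against 8 of 42 with more; in islets 1 of the 38 was under 10 CPM. Some members with few unique windows were high at E16.5, such as Rplp1 (40% unique, 386 CPM) and Rps4x (27.8% unique, 232 CPM). Over the 80 members matched to transcripts, Spearman's rho between the unique share of 100-base windows and CPM was 0.51 at E16.5 and -0.14 in islets. These points share a library and are given as a description. The handling of reads with more than 1 match is not stated for either table. Rpl26 is listed at or near 0 in all 16 libraries, as is Gm15772, an overlapping gene entry on the same strand, with at most 4 counts.

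Within a table and per length, Rpl4 led the E16.5 pancreas, with 1154 CPM per kb in KO and 1363 CPM per kb in controls. Rpl8 (933 in KO and 1154 in control), Rplp1 (735 and 926) and Rps14 (862 and 909 CPM per kb) were also among the 5 highest. In islets Rpl10 led, with 720 CPM per kb in KO and 719 in controls, followed by Rpl4, Rpl41, Rpl9 and Rpl8 at 389 to 502 CPM per kb in controls. The 5 highest members by CPM held 39.6% of the RP counts at E16.5 and 16.6% in islets. The lowest in both tables were Rpl10l, Rpl26, Rpl39l, Rpl3l and Rpl32l, each under 0.7 CPM per kb in every group. These orders carry the same limit on copies.

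**Figure D4:**
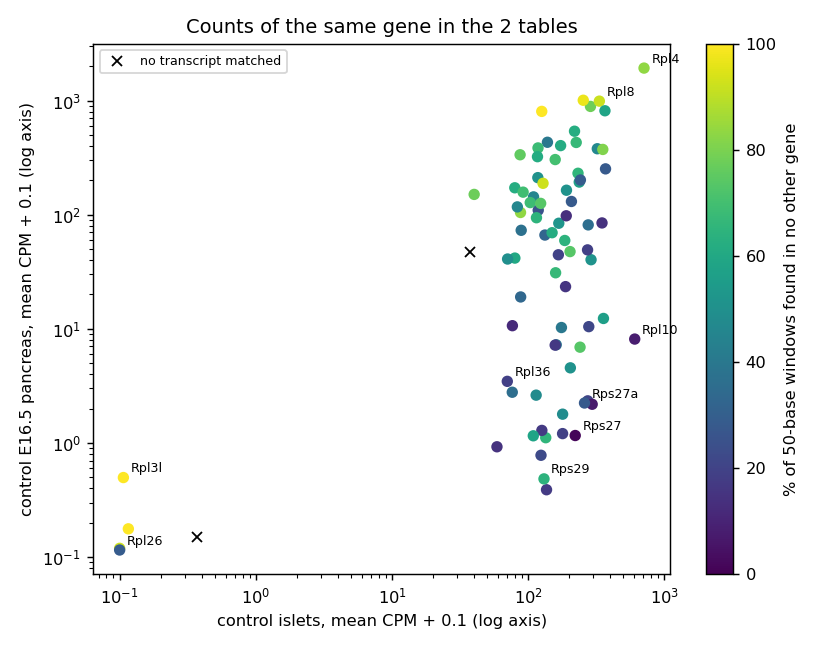
Mean CPM in control E16.5 pancreas (vertical) against control islets (horizontal), both plus 0.1 on log axes, 1 point per member, coloured by the percent of its transcript's 50-base windows found in no other gene, with crosses for members matched to no transcript. Rps29, Rps27 and Rpl10 lie far lower at E16.5 than in islets, where all but 5 members lie between 37.1 and 709 CPM.

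Other genes of the translation machinery were set beside the family by lists, whose counts stand beside the 2.68% of all genes that fell and the 3.75% that rose at E16.5. Of 6 RP genes outside the naming rule, including the 40S scaffold Rack1, 0 passed and all 6 were negative, with a median of -0.17 at E16.5. Rack1 averaged 806 ± 30.2 CPM in KO and 919 ± 22.2 CPM in control pancreas (adjusted p = 0.135), and Rps3a1 131 ± 9.97 and 152 ± 11.9 CPM. Of 76 mitochondrial RP genes, which serve a separate ribosome, 5 fell and 0 rose, with a median of -0.14. Among them Mrps34 averaged 29.9 ± 1.43 CPM in KO and 39.8 ± 1.80 CPM in control pancreas (-0.41, adjusted p = 0.0239), with Mrps12 (-0.41) and Mrpl34 (-0.42) next. Of 11 elongation factor genes 1 rose, Eef1a2, the neuronal and muscle form of the factor, at 12.0 ± 7.99 CPM in KO and 1.09 ± 0.0862 CPM in control pancreas (3.46, adjusted p = 0.0198). The median of the 11 was -0.20, and Eef2 averaged 2389 ± 35.0 CPM in KO and 2736 ± 47.5 CPM in control pancreas (-0.20, adjusted p = 0.155).

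Of 38 initiation factor genes 4 fell and 0 rose (median -0.095). The lowest p-values were those of Eif2b4 (-0.37, adjusted p = 0.0265) and Eif2b2 (-0.27, 0.0329), subunits of the exchange factor of eIF2. Of 71 ribosome biogenesis genes 1 fell, Imp3 of the small-subunit processome (32.3 ± 0.501 CPM in KO and 43.3 ± 1.34 CPM in control pancreas, adjusted p = 0.0186), and the median was -0.068. Among 30 regulators of RP synthesis in the mTOR and Myc pathways 1 fell, the mTOR inhibitor Ddit4 (-0.22, adjusted p = 0.0408; median -0.028). Of 12 genes of the p53 checkpoint 1 fell, the p53 target Cdkn1a (-0.30, adjusted p = 0.0396; median -0.079). All 10 proliferation genes missed the threshold, with a median of -0.0077. In islets no gene of these lists passed the test. Of the 12 p53 checkpoint genes, 5 had an unadjusted p under 0.05 in islets, all higher in KO, and 4 had every KO library above every control, where 3.47% and 0.781% of all genes did. Their median was 0.10, and the lowest adjusted p was that of Eda2r, at 3.37 ± 0.186 CPM in KO and 1.97 ± 0.375 CPM in control islets (0.77, adjusted p = 0.0642, edgeR). All of these directions at E16.5 are relative to the bulk of genes and shift by 0.41 with the epithelial scaling.

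**Figure D5:**
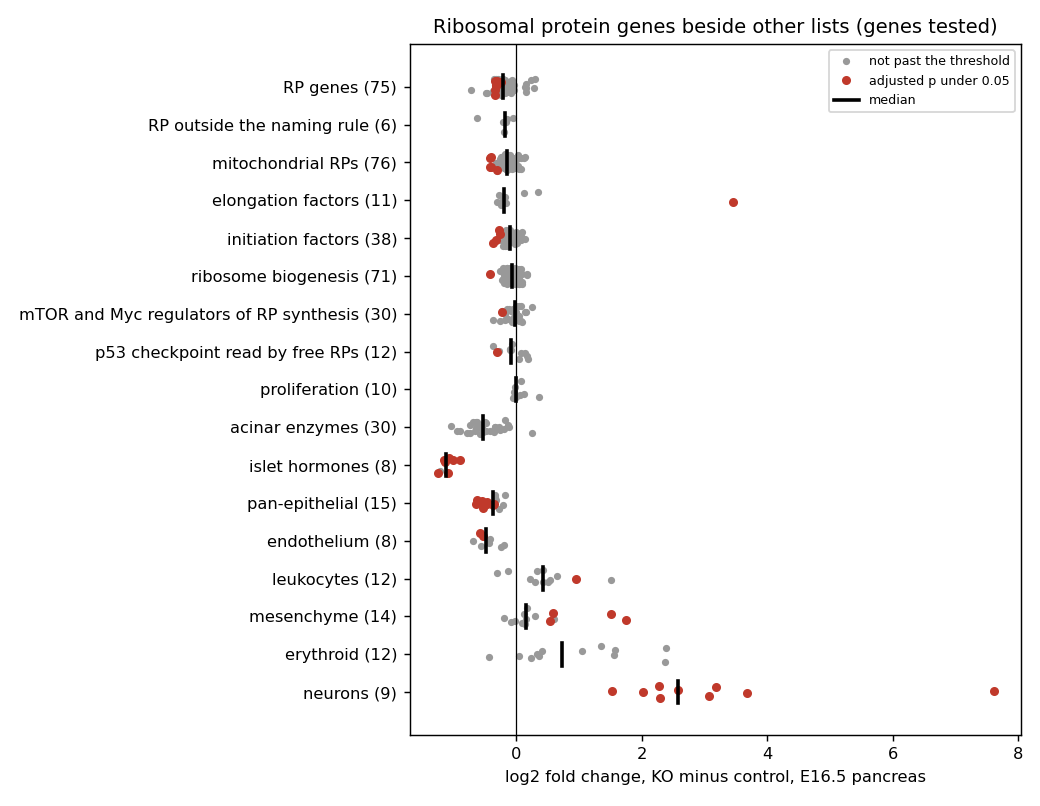
Log2 fold change of KO over control at E16.5 (horizontal axis) for the genes tested in each list, with the number tested in brackets, each point 1 gene, red where the adjusted p is under 0.05 and a black bar at the median. The RP genes have a median of -0.21, the islet hormones of -1.12 and the neuronal markers of 2.58.

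Cell type markers also differed between KO and control pancreata, though the ranges of the mesenchymal, erythroid, leukocyte and endothelial lists overlapped. The 30 acinar enzyme genes took 6.35% to 11.5% of counts in KO pancreata and 12.0% to 14.2% in controls, with 0 of 30 passing and a median of -0.52. Islet hormones took 0.0832% to 0.145% in KO and 0.217% to 0.287% in control pancreata, with 7 of 8 fallen. The 15 pan-epithelial markers took 0.220% to 0.242% in KO and 0.271% to 0.315% in control pancreata, with 9 fallen. The 9 neuronal markers took 0.0248% to 0.105% in KO and 0.00915% to 0.0101% in control pancreata, and all 9 rose. Mesenchymal markers took 1.82% to 2.39% in KO and 1.62% to 1.88% in control pancreata (4 of 14 rose). Erythroid genes took 0.180% to 0.343% in KO and 0.173% to 0.215% in controls (0 of 12 passed), leukocyte genes 0.0353% to 0.0622% and 0.0338% to 0.0411% (1 of 12 rose), and endothelial genes 0.0681% to 0.0842% and 0.0830% to 0.105% (2 of 8 fell). No marker of these lists was at 0 in all pancreata. In bulk tissue fewer cells of a type and less RNA per cell cannot be told apart, and the part of cell composition in the RP shift was not tested.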

How the data were processed

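Per the submitters' processing notes, reads were handled with Trimmomatic, STAR 2.6.0, HTSeq 0.11.1 and edgeR on mm10; the sources used here name neither annotation nor strand setting. The deposited tables hold whole-number read counts per gene, with gene length in kb as an other measure in the authors' tables, used only for CPM per kb. The members and lists were chosen with earlier results of these data known. Counts were fitted within each tissue with edgeR 4.0.16 (R 4.3.3; TMM scaling, filterByExpr, glmQLFit and glmQLFTest, adjusted p under 0.05 over all genes tested); limma 3.58.1 and DESeq2 1.42.0 gave alternatives. The 7 members Rpl10l, Rpl23a, Rpl26, Rpl32l, Rpl39l, Rpl3l and Rps29 were not tested at E16.5 for low counts. Differences are KO minus control in log2 units, CPM are TMM-scaled, and SD is over libraries. The fitting script was tested on simulated counts. All called members, or the 5 with the lowest p in each direction, are named, with the 5 highest and lowest per length and members of known role. Replicates are separate animals. Counts below 10 CPM carry wide counting error. Values of 3 members are not reported here.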

Additional observations from a re-analysis of the deposited data

Results flagged for a closer look

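A test of the difference itself, with 1 spread per gene over both tissues, set E16.5 pancreas against islets. By that test the effect of the knockout differed in 24 members (edgeR, adjusted p between 0.00937 and 0.0425). The E16.5 effect minus the islet effect, on the log2 scale, is given for 21 of them and was Rps15 (-0.38), Rpl4 (-0.31), Rps28 (-0.41), Rpl32 (-0.41), Rpl41 (-0.37), Rpl37 (-0.42), Rpl36 (-0.68), Rps26 (-0.35), Rpl37a (-0.36), Rpl14 (-0.35), Rpl8 (-0.35), Rpl6 (-0.31), Rps4x (-0.32), Rpl29 (-0.34), Rpl18 (-0.36), Rpl17 (-0.37), Rpl30 (-0.36), Rps2 (-0.33), Rpl23 (-0.31), Rps18 (-0.28) and Rps10 (-0.39). The 8 members that fell at E16.5 are among them, and in all 24 the E16.5 effect was the lower one with TMM scaling. The test was not run with the epithelial scalings. Rpl36 and Rpl17 averaged only 2.70 and 9.39 CPM at E16.5, where counts carry wide error.

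Control islet 826 stood apart in Rpl18, with 107 CPM, against 119 to 123 CPM in the other 4 control islets; the gap took 0.731 of the range, above the critical value of 0.71. This was 1 of 38 groups of 5 islets examined, and chance alone marks about 1 in 20.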

How the results depend on the processing

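At E16.5 the count of members lower in KO, 8, became 4 with DESeq2's size factors, 0 with library totals, 0 with either epithelial scaling, 5 with a filter of at least 1 CPM, 24 with DESeq2 and 18 with limma-voom. Over all genes, 347 of 14914 were lower with DESeq2's size factors and 373 of 14259 with the filter of at least 1 CPM. The count of members stood at 8 in the main fit, beside 399 of 14914 genes. It stayed within 1.5 times of 8 with TMM computed without the members, no low-count filter and robust edgeR. Leaving out 1 library gave 0 to 20. With the sum and with the geometric mean of epithelial markers 18 and 19 members of 75 were higher, beside 9869 and 9971 of 14914 genes, and the member median was 0.20 with both; with library totals the median was -0.14. The named log2 fold changes that turned positive with that sum and that geometric mean were, in this order, Rpl14 0.10 and 0.10, Rpl18 0.0807 and 0.0809, Rpl37a 0.0846 and 0.087, Rpl41 0.0863 and 0.0885, Rps15 0.0823 and 0.0847, Rps18 0.13 and 0.14, Rps28 0.0724 and 0.0737, Rps4x 0.16 and 0.16, Rplp0 0.17 and 0.17, Rplp1 0.0792 and 0.082, Rplp2 0.0472 and 0.0506, Rpsa 0.27 and 0.27, Rpl5 0.35 and 0.35, Rpl11 0.0456 and 0.0452, Rps6 0.24 and 0.24, Rps19 0.18 and 0.19 and Rpl4 0.17 and 0.17. Rpl5 also turned with library totals, to 0.0157. The RP share difference at E16.5 was -0.213 percentage points without acinar, hormone and erythroid counts, against -0.128 with all counts. Relative to the RP sum, leaving out 1 library gave 0 to 2 members higher and 0 to 2 lower, with counts over all genes not computed. The 24 members whose effects differed between tissues became 11 with library totals and 8 to 38 with 1 library left out. The epithelial scalings were not used in that test. In islets 0 members were called under all 10 settings and all 10 omissions; Rps3 ranged from -0.0551 to 0.00032 with 1 library left out, at 0.00032 without KO 122. The cause of these changes was not tested. The pancreas has 3 libraries a group and the 29 members under 10 CPM limit what single genes show. No paired analysis was possible because the labels do not state which KO and control animals were littermates.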
